A study of Homo sapiens with 6 samples.

Results

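The genes described here lie on the distal long arm of human chromosome 17, from position 60000000 of the build GRCh38 to the end of the chromosome. They were chosen by place, as rows that start at or beyond that position, and by depth, as rows whose counts over 6 libraries sum to at least 60. The segment was singled out because many of its genes were higher in the knockout libraries. The knockout against control values below therefore describe that choice and are given with no test of the segment. Of 35784 rows of the deposited table, 571 lay in the segment and 352 met the count rule, 236 of them with a protein-coding transcript. MYADML2 stood just inside the count rule with a sum of 60, and ENSG00000262147 just outside it with 58. TBC1D3P1 was the first row inside the position limit and RNFT1, starting at 59952240, the last named gene outside it.

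The distal long arm of chromosome 17 is gene-rich and GC-rich, and is known as a stretch that is often gained in carcinomas of the breast and in neuroblastoma. It carries genes for kinases such as PRKCA, for the survival factor BIRC5, for the fatty acid synthase FASN, for the developmental regulator SOX9 and for many household proteins of translation, mitochondria and the proteasome. Neighbouring genes of a segment can share a change in level without sharing a pathway, so genes are described first by position and then by role.

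Total RNA had been sequenced from NCI-H1299, an established human line from a non-small cell lung carcinoma, in 3 libraries from cells with a control vector (KO-NC) and 3 from cells with a knockout of IGF2BP3, which encodes an RNA-binding protein. Knockout cells had received a lentiviral CRISPR vector with guides against IGF2BP3, had been selected with puromycin and had been grown from single-cell colonies. The descriptions of the control libraries carry the word lenti, and the control vector is not described further in the labels. Which colony gave each library, and whether replicates were separate cultures, is not said. Differences between colonies and the effect of the knockout cannot be told apart, and the spread between libraries may be technical.

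Libraries held between 67674223 and 80810319 counts, so that the floor of 3 counts lay between 0.0389 and 0.0435 CPM (counts brought to 1 library size with TMM factors), for counting error only. IGF2BP3 stood at 58.8, 51.6 and 54.1 CPM in controls and at 39.9, 25.04 and 22.6 CPM in knockouts, a log2 fold change of -0.91 (SE 0.20), so every knockout library was lower than every control while part of the message remained, with the highest knockout level in knockout 1. The call of IGF2BP3 was lost in 4 of the 6 fits that left out a library. Knockout library 1 stood apart from the other 2 knockouts: counts differed from theirs by a chi-square per degree of freedom of 87.8 and 95.4, against 13.7 between knockouts 2 and 3. Control 3 likewise differed from controls 1 and 2 by 41.1 and 40.8, against 11.4 between those 2. All 5 epithelial markers were lower in every knockout than in any control: the keratin gene KRT8 was at 4581 to 4870 CPM in controls and 2258 to 2726 CPM in knockouts, KRT18 at 2868 to 3182 and 1689 to 1748, KRT19 at 58.9 to 68.2 and 0.544 to 0.765, CDH1 at 150.3 to 173 and 33.8 to 66.1, and EPCAM at 4.76 to 4.84 and 3.36 to 3.93. Of 7 lung lineage markers, FOXA2 was at 11.2 to 17.5 CPM over the 6 libraries and the other 6, NKX2-1 among them, were at 2.203 CPM or less. Of the leukocyte markers, CD3E was at 0 in all libraries and PTPRC in 5, while the monocyte marker CD14 was at 15.03 to 16.6 CPM in controls and 4.33 to 7.69 CPM in knockouts. The endothelial markers CDH5 and KDR did not exceed 0.411 CPM. Of 5 fibroblast markers, COL1A1 was at 6.02 to 7.32 CPM in controls and 8.14 to 11.3 CPM in knockouts, and the other 4 did not exceed 0.743 CPM. The part of these differences in the results below was not tested. In bulk RNA, fewer cells with a message and less message per cell cannot be told apart.

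The sequences before 3 genes of the segment are printed as examples and do not stand for the promoters of the other genes that moved. PRKCA and DUS1L were higher in the knockout and BAHCC1 was lower, and all 3 were picked for display after their values were seen. The DUS1L call was lost in 1 of the 6 fits that left out a library and that of BAHCC1 in 3. Each is the run of 250 bases before the gene start in RefSeq (build GRCh38.p14), printed 5′ to 3′ on the strand of the gene, and overlaps no row of the table. Capitals mark 3 motifs searched on both strands: the TATA box as TATAAA, the CCAAT box as CCAAT and the GC box as GGGCGG. PRKCA lies at chr17:66302363-66302612 on the plus strand, DUS1L at chr17:82065805-82066054 on the minus strand and BAHCC1 at chr17:81395207-81395456 on the plus strand.
PRKCA: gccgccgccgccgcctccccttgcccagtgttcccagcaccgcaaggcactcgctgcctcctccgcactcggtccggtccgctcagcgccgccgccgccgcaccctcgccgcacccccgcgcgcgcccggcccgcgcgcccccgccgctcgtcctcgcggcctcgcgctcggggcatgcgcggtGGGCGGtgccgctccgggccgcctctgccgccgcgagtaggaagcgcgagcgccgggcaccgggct
DUS1L: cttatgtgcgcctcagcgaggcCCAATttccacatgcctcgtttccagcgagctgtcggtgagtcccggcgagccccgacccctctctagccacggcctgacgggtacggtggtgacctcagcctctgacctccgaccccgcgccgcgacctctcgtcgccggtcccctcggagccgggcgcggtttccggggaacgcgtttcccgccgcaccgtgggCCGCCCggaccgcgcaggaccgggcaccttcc
BAHCC1: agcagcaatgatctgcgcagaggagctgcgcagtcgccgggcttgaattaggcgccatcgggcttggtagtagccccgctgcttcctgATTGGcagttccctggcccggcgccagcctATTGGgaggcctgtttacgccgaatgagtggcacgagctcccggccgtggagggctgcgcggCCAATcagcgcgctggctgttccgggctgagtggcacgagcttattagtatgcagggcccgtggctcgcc
The PRKCA run is 82.0% G or C and holds 47 CpG pairs. That of DUS1L holds 1 CCAAT box and 1 GC box. The BAHCC1 run holds 3 CCAAT boxes and no GC box. RefSeq promoters matched 184 of the 352 genes, and these had a median of 23 CpG pairs in the 250 bases and 67.6% G or C, against 11 pairs and 58.0% over all 35116 promoters. A GC box stood in 72.8% of the 184 and in 42.6% of all promoters, and a TATA box in 6.52% and 10.7%. These sets are unlike: the 184 hold 1 promoter for each matched gene that met the count rule, while the 35116 were taken without regard to counts. The part of that in the differences was not tested. Among the 86 matched genes called higher in the knockout, 80.2% held a GC box and 38.4% a CCAAT box, against 72.8% and 35.9% of all matched genes of the segment. Of the 5 matched genes called lower, 2 held a GC box and 4 a CCAAT box. The calls come from the contrast that chose the segment, so nothing is read from these shares. A match is a run of letters and does not show binding.

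The genes of the segment were higher in each knockout library. Over the 347 genes that passed the filter on low counts, the median log2 ratio to the mean of the controls was 0.31, 0.36 and 0.36 in knockouts 1, 2 and 3, a mean of 0.34 ± 0.03 (SD, n = 3), which is 1.27-fold. Each control set against the other 2 controls gave medians of 0.00, -0.02 and 0.02. Since the segment was chosen for this rise, the distance between the groups supports nothing beyond that choice. The other 5 genes of the segment did not pass the filter: TBC1D3P1, RPL32P33, TRIM80P, ENSG00000265800 and PVALEF. Seen as a share of all counts, the 352 genes took 2.40%, 2.40% and 2.31% in controls and 3.16%, 2.94% and 2.97% in knockouts. Knockout 1 had the highest share but the lowest median.

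Gene by gene, the shift was broad and not uniform. The fitted log2 fold change had a median of 0.39, with quartiles of 0.06 and 0.64, against a median of 0.01 over all 20134 genes tested. It was above 0 in 271 genes and below 0 in 76, lay between 0.2 and 0.6 in 123, exceeded 1 in 38 and was under -1 in 11. Of the 347 genes, 117 (33.7%) were called higher, meaning an adjusted p under 0.05 in the quasi-likelihood test of edgeR over all genes, and 10 (2.88%) were called lower. Over all tested genes 8.21% were called higher and 11.5% lower. Since the segment was chosen on this contrast, nothing is read from the comparison of these shares. The count of higher genes was 68 without control 1, 69 without control 2, 76 without knockout 2 and 140 without knockout 1. Over all tested genes those fits called 3.69%, 3.96%, 4.24% and 10.8% higher. Of the 117, 58 were called higher in each of the 6 fits that left out a library, as were 7 of the 10 lower genes in their direction.

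Most calls were modest in size. Of the 117 genes called higher, 58 had a log2 fold change under 0.6, 40 lay from 0.6 to 1 and 19 were at or above 1. All 3 knockout libraries lay above all 3 controls in 173 genes (49.9%) and below them in 18 (5.19%), against 19.7% and 21.5% of all tested genes, a comparison from which again nothing is read. Knockout 1 alone exceeded all controls in 207 genes (59.7%), knockout 2 in 234 (67.4%) and knockout 3 in 232 (66.9%). Over all tested genes these shares were 35.9%, 35.7% and 35.3%, and nothing is read from the comparison. Knockout 1 was below all controls in 73 genes, against 42 and 37 for knockouts 2 and 3. The share over all tested genes was not taken for this direction, so nothing is read from these counts. The spread between replicates of genes with at least 5 CPM was a median SD of 0.10 (controls) and 0.15 (knockouts) on the log2 scale, and the same spread over all tested genes was 0.10 and 0.14.

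The rest of chromosome 17 behaved otherwise in the same libraries. On the long arm below the segment, 564 tested genes had knockout medians of -0.01, 0.06 and 0.04. On the short arm, 395 genes had medians of -0.20, -0.15 and -0.16, below 0 in every knockout. The short arm took 2.15% to 2.16% of counts in controls and 1.87% to 1.88% in knockouts, and the long arm below the segment 3.58% to 3.60% and 3.76% to 3.79%. The plot of medians by region shows the distal long arm above 0 and the short arm below it. Among the other chromosomes, chromosome 16 stood out in the opposite direction with a median fitted log2 fold change of -0.49, while the remaining autosomes lay between -0.06 and 0.16. The largest difference was on chromosome Y, whose 25 tested genes had a median of 5.38, with 80.0% called higher in the knockout. The groups thus differ over whole chromosomes, and differences between colonies or cell stocks and the knockout cannot be told apart. These differences between regions were not tested.

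The shared rise began shortly before the position limit. A single step fitted to the fold changes of 644 long-arm genes with a mean count of at least 100 fell between ENSG00000273702, starting at 59618553, and CLTC, the clathrin heavy chain gene starting at 59619684. The median log2 fold change was 0.04 over the 396 genes below the step and 0.38 over the 248 above it. Knockouts 1 and 3 taken alone gave the same step, with medians above it of 0.38 and 0.36. Knockout 2 alone placed it 1 gene earlier, at ENSG00000273702, as did the fit without knockout 1. These fits share genes and controls, so they do not measure how far scatter between genes could move the step. The last coding gene below the step was DHX40, a helicase gene with a log2 fold change of -0.09, and the first above it was CLTC with 0.26. CLTC, DHX40 and the genes named below the step are outside the naming rule and were chosen after their values were seen.

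Between the step and the limit lay 6 genes with a mean count of at least 100, and all 6 had higher levels in every knockout than in any control. Over all tested genes 19.7% did so. The step was placed on these same fold changes, so values on either side of it describe that placing and support nothing further. PTRH2, the gene of a mitochondrial peptidyl-tRNA hydrolase, was at 45.3, 48.3 and 43.2 CPM in controls and at 67.7, 66.3 and 60.7 CPM in knockouts (log2 fold change 0.51, SE 0.08, called higher). RPS6KB1, which encodes the ribosomal S6 kinase of the mTOR pathway, was at 90.8, 90.4 and 87.8 CPM in controls and at 117, 143 and 138 CPM in knockouts (0.57, SE 0.09, called higher). TUBD1, for delta-tubulin, went from 9.03 ± 0.87 to 16.7 ± 1.72 CPM (n = 3 each), a log2 fold change of 0.89, and was called higher. VMP1, an autophagy gene, and RNFT1 had log2 fold changes of 0.23 and 0.36 and were not called. Among the 10 genes just below the step, log2 fold changes ranged from -1.43 in YPEL2 to 0.90 in PPM1E, with a median of 0.16 against 0.44 for the 6 above it. In 4 of these 10 genes, too, all knockouts lay above all controls. The edge was therefore not sharp for single genes: SKA2, a kinetochore gene, already had 0.43 and was called higher, a call lost in 5 of the 6 fits that left out a library, and RAD51C, a recombination gene, had 0.35 and was not called.

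The first genes inside the limit were mixed. HEATR6 was at 58.0, 59.5 and 62.0 CPM in controls and at 78.4, 76.8 and 76.8 CPM in knockouts (0.37, SE 0.07, called higher). USP32, a deubiquitinase gene, was at 114, 115 and 117 CPM in controls and at 141, 139 and 145 CPM in knockouts (0.30, SE 0.06, called higher). In both genes the groups did not overlap, but the call of USP32 was lost in 4 of 6 fits with a library left out, while that of HEATR6 was lost in none. The next 3 were not called: APPBP2 had a log2 fold change of -0.17, PPM1D, the gene of a phosphatase of the DNA damage response, had 0.05, and BCAS3 had 0.02. BCAS3 was at 37.7, 36.8 and 39.3 CPM in controls and at 28.7, 44.3 and 42.4 CPM in knockouts, so knockout 1 lay below all controls and knockouts 2 and 3 above them.

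**Figure D1:**
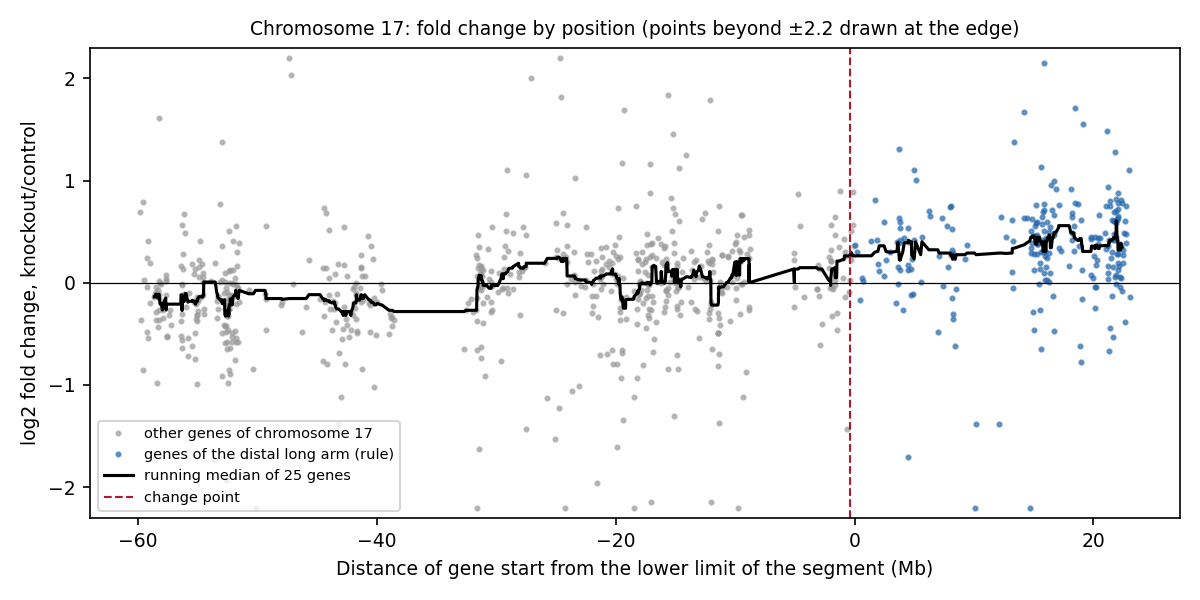
Fitted log2 fold change of knockout over control (vertical axis) for genes of chromosome 17 with a mean count of at least 100, by distance of the gene start from position 60000000 (horizontal axis, Mb). Points are genes, blue in the segment, the black line is the running median of 25 genes and the dashed line the fitted step. The running median stays above 0 past the step, while single genes scatter on both sides of 0.

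The size of the rise was not even along the segment. In intervals of 5 Mb, the median log2 ratios of knockouts 1, 2 and 3 were 0.09, 0.05 and 0.08 from 55 to 60 Mb. They were 0.26, 0.28 and 0.33 in the interval that starts the segment, from 60 to 65 Mb. They were 0.20, 0.28 and 0.34 from 65 to 70 Mb. From 70 to 75 Mb, where 28 genes were tested, knockout 1 had a median of 0.07 and knockouts 2 and 3 had 0.43 and 0.31. From 75 to 80 Mb, with 112 genes, the 3 knockouts were alike at 0.45, 0.43 and 0.41. In the last interval, with 104 genes, they were 0.28, 0.37 and 0.34. From 60 Mb on, the intervals in order held 16 of 69, 10 of 34, 9 of 28, 51 of 112 and 31 of 104 genes called higher. Over all tested genes 8.21% were called higher, and nothing is read from the comparison. The interval from 70 to 75 Mb also holds KCNJ16, KCNJ2, SOX9 and RAB37, which were lower in the knockout.

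Along windows of 25 neighbouring genes, the median log2 fold change ran from -0.03, in the window from ENSG00000277476 to ENSG00000277728 (starts 68133201 to 73202968), to 0.66 in the window from AANAT to TMC8 (starts 76453351 to 78130770). The lowest window covers a gene-poor stretch around SOX9 and the KCNJ2 and KCNJ16 potassium channel genes. With 2 steps allowed in place of 1, an option added after the data were seen, the steps fell at RAD51C (start 58692573) and at the non-coding LINC00511 (start 72290091). The 3 stretches then had median log2 fold changes of 0.04 over 386 genes, 0.27 over 81 genes and 0.42 over 177 genes.

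**Figure D2:**
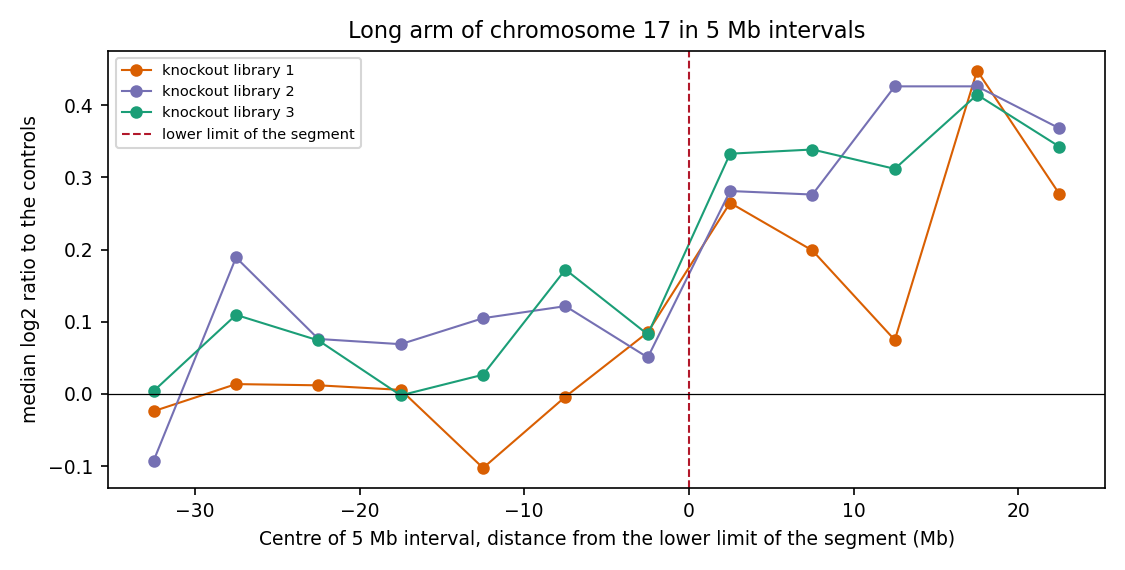
Median log2 ratio to the mean of the controls (vertical axis) in 5 Mb intervals of the long arm of chromosome 17, by distance of the interval centre from position 60000000 (horizontal axis, Mb). Each line is 1 knockout library. Knockouts 2 and 3 are higher in every interval past the limit than in any before it, while knockout 1 drops to 0.07 from 70 to 75 Mb, below its 0.09 from 55 to 60 Mb.

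Part of the genes of the segment were sorted into 11 groups by the role of their product, and some of these belong to more than 1 group. Many other genes, UNC13D and HEATR6 among them, are in no group, so the groups do not cover the whole segment. The medians of these groups lay between 0.23 and 0.66 on the log2 scale, against 0.01 for all tested genes. In each group more genes lay above 0 than below. The counts below read against 8.21% of all tested genes called higher and 11.5% called lower, unless another fit is named. They share the choice of the segment, so they describe the groups and test nothing.

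Among 22 genes of growth and survival signalling, 9 were called higher and none lower, 19 lay above 0 and the median was 0.34. PRKCA, the gene of protein kinase C alpha, was at 249.8, 258 and 264.4 CPM in controls and at 435.3, 383.1 and 396.1 CPM in knockouts (log2 fold change 0.65, SE 0.08, called higher). The lowest knockout was well above the highest control. PRKAR1A, a regulatory subunit of protein kinase A, was at 351, 344 and 376 CPM in controls and at 349.7, 336 and 338 CPM in knockouts (-0.06, not called), and CSNK1D, casein kinase 1 delta, had 0.06 (not called). PRKCA thus passed the threshold and the other 2 did not, and the difference between them was not tested. RHBDF2 (0.96), which encodes a partner of the shedding protease ADAM17, BIRC5 (0.64), the survivin gene, STRADA (0.63), a pseudokinase partner of LKB1, SOCS3 (0.56), a feedback inhibitor of cytokine signalling, and the adaptor gene GRB2 (0.38) were all called higher, and were named after their values were seen. The calls of BIRC5 and SOCS3 were lost in 3 and 2 of 6 fits with a library left out. RPTOR, a subunit of mTOR complex 1, was at 115, 110.2 and 92.5 CPM in controls and at 182, 119 and 129 CPM in knockouts (0.44, not called). Its groups did not overlap, and knockout 1 was far above the other 2.

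All 15 genes of the group of DNA replication and repair lay above 0, 9 were called higher and none lower, with a median of 0.44. This group also holds the nuclear pore gene NUP85 and the centrosome and cilium genes CEP131, FBF1, CEP95 and CEP112. Its counts are therefore not of replication and repair genes alone. TK1, the thymidine kinase gene of S phase, was at 192, 196 and 164 CPM in controls and at 314, 231 and 230.0 CPM in knockouts (0.49, SE 0.14, called higher). NUP85, a nuclear pore scaffold gene, was at 78.7, 82.3 and 64.7 CPM in controls and at 143, 122 and 117 CPM in knockouts (0.76, SE 0.12, called higher). CENPX, whose product works at centromeres and with the Fanconi helicase FANCM, went from 42.9 ± 4.12 to 78.7 ± 13.4 CPM (n = 3 each), a log2 fold change of 0.88, and was called higher. In all 3 genes knockout 1 was the highest library. The call of TK1 was lost in 5 of 6 fits with a library left out, and those of NUP85 and CENPX in none. BRIP1, the Fanconi anemia helicase gene, chosen after its values were seen, was called higher with 0.81 and went from 34.6 ± 6.25 to 60.8 ± 2.08 CPM.

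Of 20 genes of chromatin and transcription, 9 were called higher and 1, SOX9, lower, with a median of 0.35. DCAF7, a WD-repeat scaffold gene, was at 209.5, 209.6 and 211.5 CPM in controls and at 282.5, 266.7 and 280.1 CPM in knockouts (0.40, SE 0.07, called higher). Its replicates were close in both groups. H3-3B, a gene for histone H3.3, was at 579, 569 and 548 CPM in controls and at 817, 653 and 629 CPM in knockouts (0.31, not called), and BPTF, a chromatin remodelling gene, had 0.16 (not called). The groups of both genes did not overlap, although neither passed the threshold. FOXK2 (0.49) and the Polycomb gene CBX2 (0.43) were called higher and were named after their values were seen, with calls lost in 1 and 2 of 6 fits with a library left out.

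RNA processing and translation held 17 tested genes, all above 0, of which 13 were called higher and none lower, with a median of 0.45. The helicase gene DDX42 was at 302, 313 and 309 CPM in controls and at 399, 406 and 428 CPM in knockouts (0.42, SE 0.07, called higher). SRSF2, a splicing factor gene, was at 398, 407 and 280.3 CPM in controls and at 518, 511 and 493 CPM in knockouts (0.49, SE 0.14, called higher). Control 3 was lower than the other 2 controls in this gene, and the call was lost in 5 of 6 fits with a library left out. DDX5, another helicase gene, was at 1032 to 1201 CPM in controls and at 1269 to 1305 CPM in knockouts (0.17, not called). RPL38, a ribosomal protein gene, was at 84.6, 85.6 and 89.3 CPM in controls and at 134.5, 137.7 and 131.2 CPM in knockouts (0.64, SE 0.07, called higher). Its replicates differed little, and the gene was named after its values were seen, as were the exon junction and export genes EIF4A3 (0.45) and ALYREF (0.61), both called higher, with calls lost in 4 of 6 such fits each.

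The 11 genes of mitochondrial proteins all lay above 0, with a median of 0.38, and 4 were called higher and none lower. MRPL12, a mitochondrial ribosomal protein gene, was at 122, 119 and 120 CPM in controls and at 229, 184 and 172 CPM in knockouts (0.70, SE 0.11, called higher). ATP5PD, a subunit of ATP synthase, was at 123, 123 and 125 CPM in controls and at 145, 158 and 148 CPM in knockouts (0.28, SE 0.07, called higher). The ATP5PD call was lost in 5 of 6 fits with a library left out. MRPS7, also of the mitochondrial ribosome, had 0.38 and was not called. Without knockout 1, 7 of the 11 were called higher, in a fit that called 10.8% of all tested genes higher.

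Among 16 metabolic enzyme genes, 11 were called higher and none lower, 14 lay above 0 and the median was 0.49. FASN, the fatty acid synthase gene, was at 438, 432 and 327 CPM in controls and at 667, 619 and 695 CPM in knockouts (0.73, SE 0.12, called higher). CANT1, a nucleotidase gene, was at 132, 132 and 138 CPM in controls and at 225, 192 and 198 CPM in knockouts (0.61, SE 0.08, called higher). In both genes the groups did not overlap and the call was kept whichever library was left out. GALK1 (0.69), the galactokinase gene, and FN3K (0.75), a kinase that repairs glycated proteins, were called higher and named after their values were seen, while PYCR1, of proline synthesis, had 0.61 with overlapping groups and was not called. The FN3K call was lost in 4 of 6 fits with a library left out.

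Of 16 genes of the ubiquitin system and the proteasome, 11 were called higher and none lower, 15 lay above 0 and the median was 0.45. NPLOC4, a cofactor of the p97 ATPase, was at 233, 235 and 221 CPM in controls and at 396, 326 and 330.0 CPM in knockouts (0.61, SE 0.10, called higher). RNF213, a large ubiquitin ligase gene, was at 803, 797 and 809.9 CPM in controls and at 778, 959 and 1078 CPM in knockouts (0.22, not called). Knockout 1 was below all controls in RNF213. Genes called higher and named after their values were seen were ANAPC11 (0.82), a subunit of the anaphase-promoting complex, the proteasome genes PSMD12 (0.63) and PSMC5 (0.54), GPS1 (0.63) of the COP9 signalosome and SUMO2 (0.59). Of these, PSMC5 lost its call in 3 of 6 fits with a library left out.

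**Figure D3:**
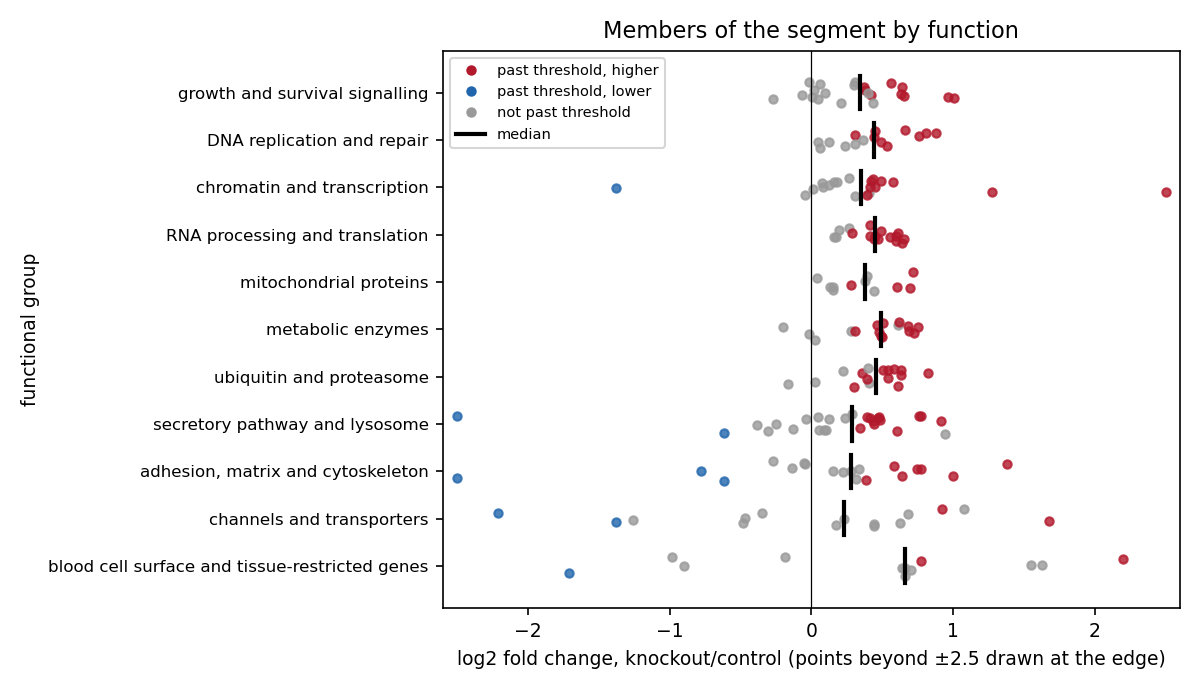
Fitted log2 fold change of knockout over control (horizontal axis) for the tested genes of 11 functional groups (vertical axis). Points are genes, colored by whether they passed the threshold, and black bars are group medians, all of which lie above 0. The groups of secretory, adhesion, channel and tissue-restricted genes hold most of the points below 0.

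The groups of surface, secreted and tissue-restricted products were more mixed. Of 27 genes of the secretory pathway and lysosome, 12 were called higher and 2, RAB37 and WIPI1, lower, with a median of 0.29. CCDC47, a gene of membrane protein insertion at the endoplasmic reticulum, went from 209.6 ± 5.35 to 275 ± 33.2 CPM (n = 3 each, 0.39, called higher), but its call was lost in 4 of 6 fits with a library left out. P4HB, the protein disulfide isomerase gene, was at 993, 1019 and 994 CPM in controls and at 1132, 989 and 998 CPM in knockouts (0.05, not called). KPNA2, which this group also holds although its product carries proteins into the nucleus, was at 576, 598 and 432 CPM in controls and at 1119, 792 and 801 CPM in knockouts (0.76, SE 0.17, called higher), a call lost in 2 of 6 such fits. MGAT5B (0.92), a glycosyltransferase gene, and CYTH1 (0.77), an exchange factor for ARF proteins, were called higher and named after their values were seen.

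Among 19 genes of adhesion, matrix and cytoskeleton, 7 were called higher and 3, PECAM1, TIMP2 and LGALS3BP, lower, with a median of 0.28. ITGB4, the integrin beta 4 gene of hemidesmosomes, was at 345, 359.9 and 331 CPM in controls and at 689, 445 and 484 CPM in knockouts (0.64, SE 0.16, called higher). ARHGDIA, the gene of an inhibitor of small GTPases, was at 332, 333 and 336 CPM in controls and at 621, 434 and 446 CPM in knockouts (0.59, SE 0.14, called higher). In both genes knockout 1 was much higher than the other 2, and the call was lost in 3 of 6 fits with a library left out. SEPTIN9, a cytoskeletal GTPase gene, had 0.31 and was not called, with groups that did not overlap. Without knockout 1, 11 of the 19 genes were called higher, in a fit that called 10.8% of all tested genes higher.

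Of 15 channel and transporter genes, 2 were called higher and 2 lower, and the median was 0.23. Without knockout 1, 4 were called higher, in a fit that called 10.8% of all tested genes higher. SLC16A5, a monocarboxylate transporter gene, was at 43.1, 44.2 and 47.7 CPM in controls and at 41.0, 70.5 and 72.2 CPM in knockouts (0.44, not called). SLC39A11, a zinc transporter gene, was at 31.1, 29.02 and 29.7 CPM in controls and at 31.6, 46.0 and 44.7 CPM in knockouts (0.44, not called). CACNG4, a regulatory subunit of calcium channels and glutamate receptors, was at 33.0, 32.6 and 24.96 CPM in controls and at 29.7, 17.5 and 17.8 CPM in knockouts (-0.48, not called). In all 3 genes knockout 1 was close to the controls while knockouts 2 and 3 lay together, away from them.

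Among 12 blood cell surface and tissue-restricted genes, 2 were called higher and 1 lower, with a median of 0.66 and a wide range. Without knockout 1, 4 were called higher, in a fit that called 10.8% of all tested genes higher. No call upward in this group held in every fit that left out a library. RBFOX3, the gene of the neuronal splicing factor NeuN, was at 10.4, 7.31 and 7.55 CPM in controls and at 5.05, 35.3 and 33.7 CPM in knockouts (1.55, SE 0.60, not called). APOH, a plasma apolipoprotein gene, was at 23.9, 22.6 and 29.5 CPM in controls and at 26.1, 47.6 and 49.8 CPM in knockouts (0.70, not called). In both genes the groups overlapped and knockouts 2 and 3 were far above knockout 1. NPTX1, a neuronal pentraxin gene, had 0.66 and was not called.

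Exceptions downward included SOX9, a transcription factor gene of cartilage and of lung and gut progenitors, at 72121020 to 72126416. It was at 27.4, 28.4 and 28.98 CPM in controls and at 11.6, 10.1 and 10.8 CPM in knockouts, 2.60-fold lower (log2 fold change -1.38, SE 0.10). LGALS3BP, a secreted glycoprotein gene, was at 419, 422 and 436 CPM in controls and at 241, 247 and 256 CPM in knockouts, 1.72-fold lower (-0.78, SE 0.07). Both genes had close replicates in both groups, and all 3 knockouts lay below all controls. MILR1, a mast cell inhibitory receptor gene, was at 8.52, 10.9 and 10.6 CPM in controls and at 2.64, 3.71 and 2.80 CPM in knockouts (-1.71, SE 0.19). Beside it, the leukocyte marker CD3E was at 0 in all libraries, and CD14 was lower in the knockouts, whose part in this result was not tested.

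The potassium channel genes KCNJ16 and KCNJ2 lie next to each other and were both lower. KCNJ16 was at 5.68, 4.84 and 6.68 CPM in controls and at 2.21, 0.836 and 0.661 CPM in knockouts (-2.21, SE 0.45). KCNJ2 was at 8.95, 9.86 and 12.9 CPM in controls and at 2.89, 4.35 and 4.92 CPM in knockouts (-1.38, SE 0.24). RAB37, a gene of regulated secretion, was at 4.82, 5.12 and 10.7 CPM in controls and at 0.547, 1.16 and 1.09 CPM in knockouts (-2.88, SE 0.42). These 3 genes were at low levels, and knockouts lay below controls without overlap in each.

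The remaining lower genes were named after their values were seen. TIMP2, a metalloproteinase inhibitor gene, fell from 239 ± 11.3 to 156 ± 20.9 CPM (n = 3 each, -0.61). WIPI1, of autophagy, fell from 19.3 ± 3.38 to 12.6 ± 2.13 CPM (-0.62), and BAHCC1 from 71.4 ± 3.00 to 52.7 ± 5.38 CPM (-0.44). The WIPI1 call was lost in 6 of 6 fits with a library left out, and those of BAHCC1 and PECAM1 in 3 of 6. PECAM1, an endothelial and leukocyte adhesion gene, had 24, 22 and 37 counts in controls and 1, 0 and 4 in knockouts, too few for a useful fold. Of the endothelial markers, CDH5 was at 0.411 CPM in control 1 and did not exceed 0.104 CPM in the other libraries. KDR did not exceed 0.104 CPM in any library. The 7 lower genes that were called in every fit that left out a library were KCNJ16, KCNJ2, LGALS3BP, MILR1, RAB37, SOX9 and TIMP2.

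Exceptions upward were genes that rose by much more than the median of the segment. UNC13D, which encodes a priming factor for exocytosis of cytotoxic granules, was at 17.6, 19.9 and 17.7 CPM in controls and at 77.4, 83.9 and 84.0 CPM in knockouts, 4.45-fold higher (2.15, SE 0.09). MCRIP1, a gene of a corepressor-binding protein regulated by MAP kinase, was at 30.1, 28.99 and 34.2 CPM in controls and at 82.1, 72.4 and 71.7 CPM in knockouts, 2.42-fold higher (1.28, SE 0.10). Both genes were far above the controls in all 3 knockouts. TTYH2, of the tweety family of membrane proteins, was at 4.23, 2.77 and 4.84 CPM in controls and at 10.5, 14.5 and 12.9 CPM in knockouts (1.68, SE 0.23). SDK2, an adhesion gene of neurons, was at 5.81, 6.28 and 6.52 CPM in controls and at 10.6, 18.3 and 19.6 CPM in knockouts (1.38, SE 0.23). LIMD2 (1.31) and SMIM6 (1.14) were also called higher, at means of 8.74 and 11.8 CPM in knockouts, with calls lost in 3 and 2 of 6 fits with a library left out. In SDK2, LIMD2 and SMIM6 knockout 1 was the lowest of the 3 knockouts.

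**Figure D4:**
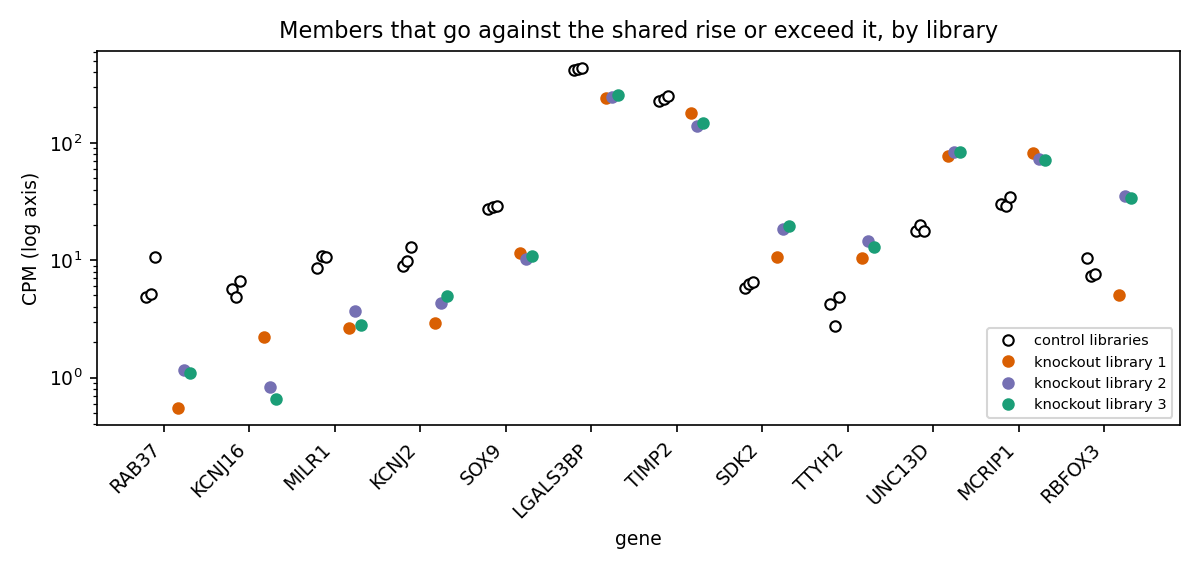
Level in CPM (vertical axis, log scale) in each library for 12 genes of the segment (horizontal axis). Open circles are the 3 control libraries and colored circles the 3 knockout libraries. The first 7 genes are lower in every knockout than in any control, the next 4 are higher, and in RBFOX3 knockout 1 lies below the controls while knockouts 2 and 3 lie above them.

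A few called genes rested on few counts. FOXJ1, the master regulator of motile cilia, had 3, 0 and 6 counts in controls and 37, 142 and 175 in knockouts. AANAT, the gene of an enzyme of melatonin synthesis, had 24, 6 and 13 counts in controls and 45, 89 and 70 in knockouts. Their counts varied widely between libraries of a group. The AANAT call was lost in 4 of 6 fits with a library left out, and that of FOXJ1 in none. Both were named after their values were seen.

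Classes of genes by simple properties had similar medians. Median log2 fold changes were 0.39 in 235 coding genes and 0.40 in 112 genes without a coding transcript. In genes of low, middle and high level the medians were 0.40, 0.29 and 0.42, while the same classes over all tested genes had -0.02, 0.00 and 0.03. The classes were split at 2.17 and 46.7 CPM, and held 9 of 116, 38 of 115 and 70 of 116 genes called higher. Over all tested genes 8.21% were called higher. That share was not taken by level, so nothing is read from these counts. Genes of the segment were richer in G and C than all tested genes, with medians of 56.8% and 48.6%. Their medians of change were 0.38, 0.40 and 0.39 in classes of low, middle and high GC content, against 0.01, 0.01 and -0.04 for all tested genes. The longest class of genes, above 26966 bases, had a median of 0.30, and the shorter classes had 0.41 and 0.44. The strand of counting is not given in the sources used here, and 196 tested genes overlap another row on the other strand, so reads of such pairs cannot be told apart. Genes that overlap any other row had a median of 0.38 and the others 0.40.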

How the data were processed

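RNA sequencing of total RNA gave 6 libraries, grouped by title into 3 controls and 3 knockouts. Trimming used Cutadapt, alignment HISAT2 and gene quantification StringTie, per the labels' protocols. Versions in the submitters' processing notes are 2.0.4 for HISAT2 and 1.3.4d for StringTie, on the build GRCh38. Annotation release and strand setting were not given in the sources used here. The authors deposited whole read counts per gene, without normalization, beside FPKM values, which the authors scaled by gene length and library total. Gene positions are those of the table.

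The low-count filter was filterByExpr with a minimum count of 10 and a minimum total of 15. The 20134 genes kept were scaled by TMM. Differences were fitted by genotype alone with the quasi-likelihood method of edgeR 4.0.16 (R 4.3.3). Calls used a Benjamini-Hochberg adjusted p of 0.05 over all tested genes. Ratios per library were log2 of CPM with a pseudocount of 0.05, against the mean of the controls. The step was the split of the long arm with the least absolute deviation from the median on each side and at least 20 genes a side. The fits were tested on simulated data. Named by rule were IGF2BP3, the 5 genes on each side of the limit with at least 5 CPM, the 3 genes with most counts in each of 11 lists, and the 6 largest falls and 6 largest rises among genes that have a symbol, reach 5 CPM in either group and do not overlap between groups. The genes, lists and rule were chosen with earlier results of these data known. All libraries were kept as separate samples, since replicates differed by a chi-square per degree of freedom of at least 11.4. Replicate numbers did not pair the libraries. DNA motifs and promoters are from RefSeq, GC content from GENCODE. Alternatives used DESeq2 1.42.0, limma 3.58.1, other scalings and filters, log2 of FPKM plus 1, other limits and each library left out. 1 gene of the segment and some other results are not reported here.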

Additional observations from a re-analysis of the deposited data

How the results depend on the processing

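The count of 117 higher genes was 10 when a fold of at least 1.5 was required, and between 68 and 140 with 1 library left out. It was 91 without the low-count filter, 134 with DESeq2 and 115 of 226 genes with log2 FPKM. The count of 10 lower genes was 5 with the fold of 1.5, 6 with log2 FPKM and between 7 and 12 with 1 library left out. The mean knockout median of 0.34 was 0.39 for genes from 70000000 on (244 genes), 0.30 from 50000000 on (443 genes), 0.38 after a GC correction added after the data were seen, and between 0.33 and 0.36 with 1 library left out. Other scalings gave 0.35 (DESeq2-type size factors) and 0.37 (total counts). The step at 59619684 moved to 59618553 without knockout 1, so that the range with 1 library left out was 59618553 to 59619684. Such fits share their genes and most libraries, so this range does not measure how well the step is placed. The 2 steps, added after the data were seen, fell at 58692573 and 72290091. The cause of these differences was not tested.

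Replicate numbers showed no pairing, with correlations of -0.01, -0.07 and -0.06 between libraries of the same number. With the replicate number as a block, 97 genes were called higher and 10 lower, against 5.69% and 9.21% of all tested genes. The calls of USP32, ATP5PD, CCDC47 and AANAT were lost among the genes described. With this block the median was 0.37 and the step stayed at 59619684. Among named genes, BCAS3 turned from 0.02 to -0.0036 with the block, to -0.092 without knockout 2 and to -0.053 without knockout 3, P4HB from 0.05 to -0.0083 without knockout 1 and PPM1D from 0.05 to -0.027 without control 3, none of them called. With 1 library left out, BCAS3 ranged from -0.092 to 0.20, P4HB from -0.0083 to 0.088 and PPM1D from -0.027 to 0.10. The other alternatives for named genes kept the direction: 421 kept the call, 43 lost it and 17 gained it. With 3 libraries a group, of unstated origin, the data limit what can be said of single genes with few counts.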

Other observations

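Genes of the segment without a protein-coding transcript were also higher, and were named after their values were seen. SNHG16, a small nucleolar RNA host gene, was at 60.1, 64.7 and 67.9 CPM in controls and at 106, 109.9 and 99.1 CPM in knockouts (log2 fold change 0.71, SE 0.08). Its neighbour in name, SNHG20, went from 9.21 ± 1.15 to 15.6 ± 1.51 CPM (n = 3 each, 0.76). LINC00511 was at 44.9, 47.0 and 54.2 CPM in controls and at 78.3, 76.6 and 73.5 CPM in knockouts (0.65, SE 0.09), and the pseudogene AMZ2P1 went from 8.67 ± 1.13 to 18.7 ± 4.34 CPM (1.11). All 4 were called higher by edgeR with Benjamini-Hochberg adjustment, and in each the knockouts lay above the controls without overlap. Of the 117 genes called higher, 103 had a coding transcript.

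MYO15B, an unconventional myosin gene, set knockout 1 apart from the other knockouts. It was at 104, 96.9 and 83.3 CPM in controls, at 113 CPM in knockout 1 and at 33.5 and 35.7 CPM in knockouts 2 and 3, and was not called.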
